A study of Arabidopsis thaliana with 9 samples.

Results

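H3K27me1, the monomethylated form of histone H3 at lysine 27, was mapped in sperm nuclei of Arabidopsis thaliana htr10 plants. The samples labelled H3K27me1 (n = 3 immunoprecipitations) and Input (n = 3 digested chromatin inputs) were taken, 6 of the 9 samples in the series. They are represented by 1 broad and 1 narrow peak list of the mark, with 11898 broad and 9451 narrow peaks on chromosomes 1 to 5. All 6 samples carry the genotype htr10, a mutation of the sperm histone H3 gene HTR10, and no other genotype was analysed here. The ecotype is labelled Col-0 in every sample except H3K27me1 immunoprecipitation 3, which is labelled Col-1. Nuclei were sorted by flow cytometry after SYBR Green I staining, and mononucleosomes were released with micrococcal nuclease. The immunoprecipitations used an anti-H3K27me1 antibody from Millipore and the inputs none. Inputs and immunoprecipitations share a number from 1 to 3 in their titles, but the label text also calls each of the immunoprecipitations replicate 1.

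In Arabidopsis, H3K27me1 is a mark of silent heterochromatin, deposited largely by the methyltransferases ATXR5 and ATXR6 during DNA replication. It is known for restraining transposon transcription and for preventing repeated replication of heterochromatic DNA. Constitutive heterochromatin of this species lies mostly around the centromeres, where protein-coding genes are few and transposons many.

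A peak list gives 1 interval per enriched region and no value per sample. No spread between samples could therefore be computed, the depth is unknown, and everything below describes these lists without a test of difference. Each peak has the authors' fold enrichment over the peak caller's background and the authors' −log10 q-value, from 1.02 to 80.6 in the broad list and from 2.001 to 154 in the narrow list. Intervals in brackets are Wilson 95% intervals, which cover counting error only, and neighbouring peaks are not independent. The sorted cell type could not be checked from a peak list. Pericentromere windows of whole Mb were used throughout. On chromosome 1 the window ran from 12 to 18 Mb, on chromosome 2 from 1 to 7, on chromosome 3 from 11 to 17, on chromosome 4 from 2 to 6 and on chromosome 5 from 9 to 16. They took up 24.3% of the span.

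Most H3K27me1 peaks were short, while much of the marked length lay in a minority of wide ones. Of the broad peaks, 16.7% were under 500 bp wide and made up 3.65% of the marked length. Peaks of 5000 bp or more made up 5.19% of the peaks and 21.7% of that length. The 2274 widest peaks, 19.1% of the list, held 50% of the marked length, and the narrowest of those was 2569 bp wide. Wide peaks were concentrated near centromeres: 77.6% of those of 5000 bp or more had their midpoint in the pericentromere windows, against 20.3% of those under 500 bp. The smallest width was 281 bp in the broad and the narrow list alike, and 13 broad peaks had it.

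Peaks near centromeres were both wider and closer together than peaks elsewhere. Inside the windows the median width was 1753 bp (quartiles 899 and 3423 bp), and outside it was 1004 bp (quartiles 566 and 1725 bp). The median gap between neighbouring peaks was 3225 bp inside (quartiles 1858 and 5853 bp) and 5909 bp outside (quartiles 2864 and 12000 bp). Median widths inside the windows ran from 1681 bp on chromosome 5 to 2046 bp on chromosome 2. In the arms beside them they ran from 902 bp on the left arm of chromosome 5 to 1017 bp on the right arm of chromosome 2, apart from the short arms of chromosomes 2 and 4. With the same exception, median gaps ran from 2723 to 3525 bp in the windows and from 5692 to 6611 bp in the arms.

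Those short arms resembled the windows. The first 1 Mb of chromosome 2 carried 156 broad peaks per Mb with a median width of 1872 bp, and 37.1% of its bases were covered. The first 2 Mb of chromosome 4 carried 152 peaks per Mb with a median width of 1565 bp, and 31.3% were covered. The other 8 arms carried 85.0 to 91.7 peaks per Mb and had 10.5% to 12.6% of their bases covered. The short arms were not poor in genes in the way the windows were. Protein-coding genes made up 52.3% and 52.9% of their length, against 16.6% to 24.5% in the windows.

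**Figure D1:**
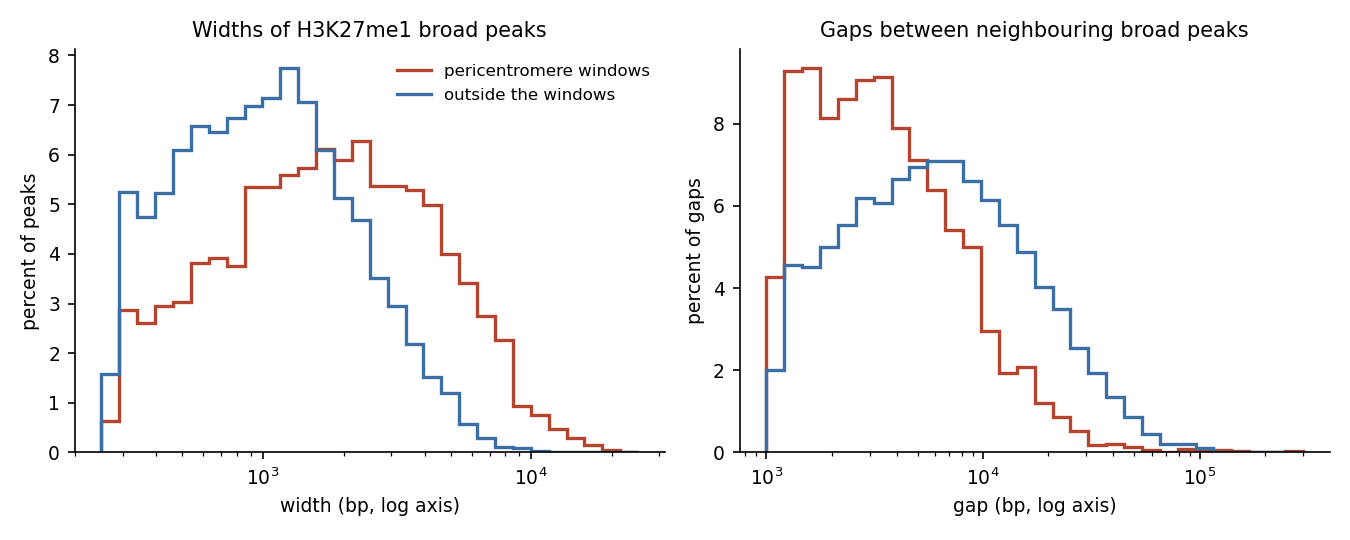
Widths of H3K27me1 broad peaks (left) and gaps between neighbouring peaks (right), both in bp on log axes, as percent of peaks or gaps inside (red) and outside (blue) the pericentromere windows. Widths inside the windows are shifted to larger values (median 1753 against 1004 bp) and gaps to smaller ones (3225 against 5909 bp); no gap is under 1127 bp.

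Spacing was uneven. The ratio of the SD to the mean of the gaps was 1.27 over 11893 gaps. It was 1.604 inside the windows and 1.15 outside, and 1.39 inside without the longest gap of chromosome 2. The order did not hold against every arm. The window of chromosome 2 had 2.29. That of chromosome 3 had 1.053, against 1.092 on its left and 1.046 on its right arm. That of chromosome 4 had 0.994, against 0.925 on its left and 1.15 on its right arm. Gaps under 2000 bp made up 28.2% of the gaps inside and 14.3% outside, and gaps of more than 20000 bp made up 2.53% and 12.1%. No gap was shorter than 1127 bp in the broad list or than 282 bp in the narrow list. Enriched stretches closer than that therefore appear as 1 broad peak.

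Several of the longest gaps lay in the windows. The longest ran over 271 kb of chromosome 2, from 3238904 to 3510174, and held 94 whole protein-coding genes, which made up 41.6% of it. On chromosome 1, gaps of 141 and 120 kb held no whole protein-coding gene, and neither did a gap of 109.6 kb on chromosome 5 from 11796446 to 11906008. The gap of 132 kb on chromosome 5 from 14385912 to 14517713 held 22. The other 5 of the 10 longest gaps lay in the arms, and protein-coding genes made up 80.98% to 91.5% of their length. A gap can also arise where reads could not be placed. The sources used here do not give how reads with several matches were treated, and its part in these gaps was not tested.

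Joining neighbours with gaps of at most 2 kb put 33.2% of the broad peaks into clusters of at least 2, 48.4% [46.8 to 50.0%] inside the windows and 26.1% [25.2 to 27.1%] outside. Most clusters were pairs, 1348 of them, and 275 were triplets. Only 18 clusters held 5 peaks or more. They contained 97 peaks (0.815%), and 14 of the 18 clusters lay in the windows. The number depended on the join distance, since a limit of 5 kb put 28.7% of the peaks into clusters of at least 5.

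The cluster of 7 peaks on chromosome 3, from 10980045 to 11005734, was the largest of the list. It overlapped AT3G28956, AT3G28958, AT3G28960, AAR3 (AT3G28970), AT3G28980, AT3G28990 and AT3G29000, with AT3G28950 and AT3G29010 beside it. The cluster straddled the start of the pericentromere window at 11 Mb, and its peaks covered 62.1% of the stretch. On chromosome 2 the largest cluster had 6 peaks, from 6852344 to 6881703, covering 75.3% of the stretch. It overlapped AT2G15740, AT2G15760, AT2G15770, AT2G15780 and SQN (AT2G15790), a cyclophilin, and lay between AT2G15730 and OTP51 (AT2G15820), which encodes a pentatricopeptide repeat protein of organelles.

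The largest clusters of the other chromosomes had 5 peaks each. On chromosome 4 it ran from 2406786 to 2435214 and overlapped CPK23 (AT4G04740), a calcium-dependent protein kinase, ABCI8 (AT4G04770), an ABC protein of plastid iron-sulphur assembly, MED21 (AT4G04780), a Mediator subunit, and AT4G04745, AT4G04750, AT4G04760, AT4G04775 and AT4G04790. Its neighbours were AT4G04730 and MSRB3 (AT4G04800), a methionine sulphoxide reductase. On chromosome 1 it ran from 16129759 to 16145347 over GAPB (AT1G42970), a subunit of chloroplast glyceraldehyde-3-phosphate dehydrogenase, BZIP60 (AT1G42990), a transcription factor of the unfolded protein response, AT1G42980 and AT1G43000, between AT1G42960 and AT1G43005. On chromosome 5 it ran from 15192745 to 15208630 over AT5G38090, AT5G38100 and the edge of ASF1B (AT5G38110), a chaperone of histones H3 and H4, between AT5G38080 and 4CL8 (AT5G38120). These genes lay within the outer limits of the clusters, so parts of them fell in the gaps between peaks.

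All 9451 narrow summits lay inside broad peaks, and their number per broad peak ranged from 0 to 9. No summit was found in 5069 broad peaks, or 42.6% [41.7 to 43.5%]. A single summit was found in 5135, or 43.2% [42.3 to 44.1%], and 2 or more in 1694, or 14.2% [13.6 to 14.9%]. The last group held 45.7% of all summits. Broad and narrow lists were made from the same samples, so their overlap is no independent support for either.

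Broad peaks without a summit were weaker than the others. Their median fold was 1.49 and their median −log10 q 2.06, against 1.64 and 3.95 in the 6829 with a summit. Their median width was 844 bp against 1650 bp. They nevertheless made up 5.15 Mb of marked length, compared with 15.4 Mb in peaks with a summit. The share without a summit was 25.8% inside the windows and 50.3% outside.

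Wider peaks held more summits, in part by construction. Narrow peaks were at least 281 bp wide and at least 282 bp apart, so a broad peak under 500 bp has no room for 2 of them. Peaks under 500 bp had no summit in 67.4% [65.3 to 69.4%] of cases, and peaks of 5000 bp or more in 1.46% [0.769 to 2.75%]. Of the latter, 88.3% [85.6 to 90.6%] had 2 or more. Per kb of peak, summits were about as frequent in each class from 1000 bp upward, with 0.416, 0.418 and 0.425 per kb. Shorter peaks had 0.639 per kb at 500 to under 1000 bp and 0.862 per kb under 500 bp. Across broad peaks, Spearman's rho was 0.52 between width and number of summits and 0.19 between width and fold. Both are descriptions over 11898 peaks of 1 list.

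**Figure D2:**
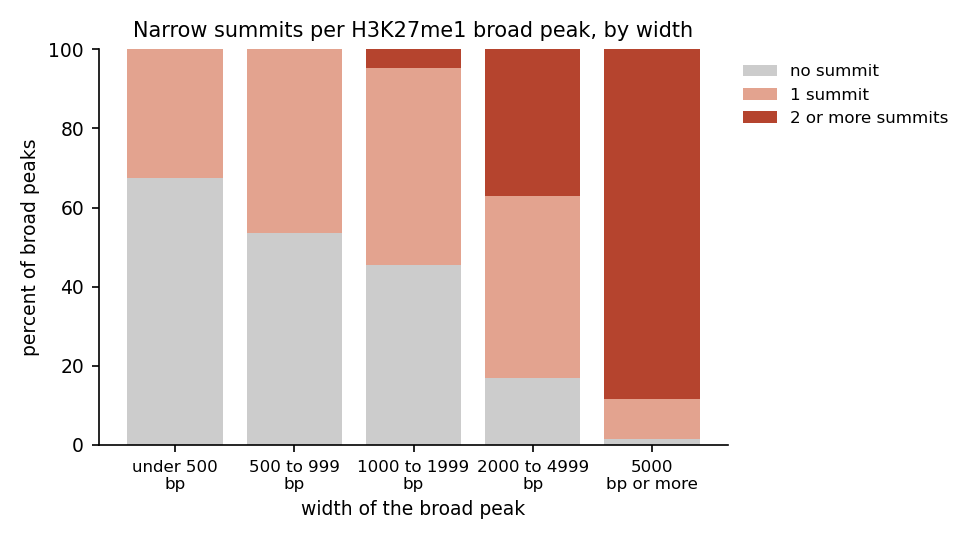
Percent of H3K27me1 broad peaks with no (grey), 1 (pink) and 2 or more (red) narrow summits, by width of the broad peak in bp. The share with no summit falls from 67.4% under 500 bp to 1.46% at 5000 bp or more, and the share with 2 or more rises from 0 to 88.3%.

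The distance between summits has a floor set by the same limits on narrow peaks. The median distance between neighbouring summits of the same peak was 1608 bp (quartiles 1162 and 2272 bp, n = 2622 pairs), with a lowest value of 338 bp. It was 1674 bp inside the windows and 1492 bp outside. A lone summit lay in the middle of its peak slightly more often than at its sides. Divided into 4 equal stretches, the peaks held 22.1%, 27.6%, 28.4% and 22.0% of the 5135 lone summits in them from left to right.

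The 10 broad peaks with most summits held 7 to 9 each. The last place was shared by 11 peaks with 7 summits, of which the widest was taken. Of all 20 peaks with 7 or more, 19 lay in the pericentromere windows. The peak on chromosome 4 from 4803885 to 4822459 had 9 summits over 18575 bp and a fold of 1.89. It covered 51.9% of CSLC12 (AT4G07960), a cellulose synthase-like protein, and the whole of AT4G07965, between AT4G07950 and AT4G07990. The other peak with 9 summits lay on chromosome 3 from 15607658 to 15621701 (fold 1.68). It covered LTPG2 (AT3G43720), which encodes a lipid transfer protein anchored at the plasma membrane, between AT3G43710 and AT3G43740.

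Peaks with 8 summits covered genes of several kinds. The widest peak of the list, on chromosome 5 from 15026494 to 15045377 with 18884 bp and a fold of 1.65, covered RSL1 (AT5G37800), a basic helix-loop-helix transcription factor. It also reached 9.11% of the aquaporin gene NIP4;1 (AT5G37810), next to its relative NIP4;2 (AT5G37820) on one side and AT5G37793 on the other. On chromosome 3, from 16448853 to 16466258 (fold 1.62), the peak covered VPS24.2 (AT3G45000), of the ESCRT-III membrane remodelling complex, and 4.04% of scpl48 (AT3G45010), a serine carboxypeptidase-like gene. It ended next to XTH31 (AT3G44990), a xyloglucan-modifying enzyme, and AT3G45020 was the neighbour on the other side. On chromosome 5, from 13195368 to 13205139 (fold 1.79), it covered AT5G34881, AT5G34882, AT5G34883, AT5G34885 and AT5G34887, between AT5G34870 and AT5G34905. Another 3 lay on chromosome 2. They covered AT2G11890, AT2G11891 and AT2G11910 (between AT2G11851 and AT2G12170), AT2G03955 (between AT2G03937 and AT2G03965), and AT2G07110 and AT2G07120 with an edge of AT2G07140 (between CAS1, AT2G07050, a cycloartenol synthase of sterol synthesis, and AT2G07170). The last, on chromosome 4 from 4054020 to 4070059 (fold 1.46), overlapped no protein-coding gene and lay between AT4G06688 and AT4G06744.

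The ranking by width shared 6 of its 10 peaks with that by summits, and 7 of its 10 held 7 or more summits. Among the 10 widest, 9 overlapped a protein-coding gene and 1 lay outside the windows. That peak, on chromosome 3 from 10854567 to 10870353 with 7 summits, covered PRE5 (AT3G28857), a small helix-loop-helix protein, and 4.61% of ABCB19 (AT3G28860), an auxin transporter, between AT3G28853 and AT3G28870. A peak with 7 summits on chromosome 3 from 11798063 to 11815876 covered BR6OX2 (AT3G30180), a brassinosteroid oxidase, and 27.9% of AT3G30165, between AT3G30160 and AT3G30200. The other 3 lay on chromosomes 2 and 4. They overlapped AT2G11035 (between AT2G11025 and AT2G11045), AT2G12646 (between NUB1, AT2G12550, and AT2G12875), and a group of AT4G04980, AT4G04985, AT4G04990 and VPS28-2 (AT4G05000), of the ESCRT-I complex, between AT4G04972 and the F-box gene FBS3 (AT4G05010).

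The peaks with the highest fold were of another shape. The leading 10 by fold were 422 to 4011 bp wide, held 1 or 2 summits, and included none of the leaders by width or summits. All 10 lay in the windows and only 2 overlapped a protein-coding gene. The first lay on chromosome 3 from 13704279 to 13707901. Its fold was 3.55 and its −log10 q 46.8. It stood between AT3G32980 and AT3G33187 in the interval with the most peaks of any between protein-coding genes: 491 kb with 37 peak midpoints, 69 annotated pseudogenes and 11.4% of its bases covered. The second, with a fold of 3.21, lay on the same chromosome from 14395755 to 14397152, between AT3G42180 and AT3G42310.

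The other high-fold peaks lay at varied distances from protein-coding genes. On chromosome 2, from 6728754 to 6730791 (fold 2.94), a peak lay between AT2G15420 and NRPB3 (AT2G15430), a subunit of RNA polymerase II, and from 3012903 to 3015030 (fold 2.75) another lay between AT2G07240 and AT2G07280. Another, from 3571787 to 3573403 (fold 2.71), lay between MCM5 (AT2G07690), a subunit of the replicative helicase and 44286 bp away, and AT2G07750, which was 3061 bp away. On chromosome 4 the peak of fold 2.98 lay from 3131200 to 3133371 between AT4G06490 and AT4G06526, over 2 pseudogenes. That of fold 2.76 lay between AT4G06526 and AT4G06534. The remaining peak on chromosome 3, with a fold of 2.90, lay between AT3G32904 and AT3G32920.

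The 2 high-fold peaks that overlapped genes covered small parts of them. On chromosome 5, from 15643116 to 15643537 (fold 2.88), the peak reached 5.69% of AT5G39080 and 2.68% of AT5G39090, with PMAT1 (AT5G39050), a malonyltransferase of phenolic glucosides, and GLP6 (AT5G39100), a germin-like protein, beyond them. On chromosome 4, from 5610640 to 5614650 (fold 2.67), it reached 18.8% of AT4G08790 and 28.9% of AT4G08800, between AT4G08780 and SUB1 (AT4G08810), a calcium-binding protein of light signalling.

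A narrow fold is taken over a shorter stretch than the fold of the broad peak around it, and the highest of several is the larger by construction. The median of the highest narrow fold per broad peak with a summit was 2.004, whereas the median broad fold of the same peaks was 1.64. The narrow peak with the highest fold, 6.02, lay on chromosome 2 from 4097172 to 4099119. Its broad peak ran from 4097163 to 4109528, held 7 summits and had a fold of 2.03. Of the 10 narrow peaks with the highest folds, 9 lay in the windows. The widest narrow peak, 9047 bp with a fold of 4.13, ran on chromosome 2 from 3189484 to 3198530 between AT2G07565 and AT2G07640.

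The ranking by −log10 q shared 6 of its 10 peaks with the ranking by fold, but not its first 2. The highest value of the broad list, 80.6, belonged to a peak of 507 bp on chromosome 2 from 9682 to 10188, near the start of the assembled chromosome, with a fold of 1.48. The second, 49.2, lay from 2426 to 3771 with a fold of 1.69. Of the 10 broad peaks with the highest −log10 q, 3 overlapped or lay within 5 kb of an annotated ribosomal RNA gene, namely those 2 and one of fold 1.72 that ran from 14193929 to 14197629 of chromosome 3. Ribosomal RNA genes exist in many copies, of which the assembly holds few. Read depth is not in the lists, and its part in these values was not tested.

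In 100 kb bins, H3K27me1 coverage rose along the arms towards the pericentromere windows, apart from the short arms of chromosomes 2 and 4. It dropped again within each window. The mean over the chromosomes was 17.2%. More than 2 times that mean, 34.5%, was reached by 167 of 1192 bins, or 14.0% [12.2 to 16.1%], and those bins held 35.5% of the marked length. Of the 167, 142 lay in the pericentromere windows. Outside the windows the median bin was covered by 9.21% on chromosome 2 to 10.4% on chromosome 4. Inside them it was covered by 29.8% on chromosome 3 to 41.6% on chromosome 2.

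The highest bin was covered by 63.6% on chromosome 1 (16800001 to 16900000), with 33 narrow summits in 13 broad peaks. On chromosome 2 it was covered by 61.9% (1200001 to 1300000), also with 33 summits. The highest bins of the other chromosomes were covered by 55.6% on chromosome 4 (2600001 to 2700000), 54.3% on chromosome 5 (10600001 to 10700000) and 53.6% on chromosome 3 (10800001 to 10900000). The last was the only one of these 5 outside the windows. Which bin came first depended on the list and bin size. It overlapped the reported one on 2 of 5 chromosomes with 50 kb bins, on 3 with 200 kb bins and on 1 with the narrow list.

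Each pericentromere window had a trough. The 1 Mb with the lowest mean coverage, located after the profile was seen, was covered by 11.8% on chromosome 1 (14400001 to 15400000), against 32.6% in the rest of that window. The values were 23.6% against 43.1% on chromosome 2 (3000001 to 4000000) and 16.8% against 34.6% on chromosome 3 (13600001 to 14600000). They were 20.7% against 37.9% on chromosome 4 (3000001 to 4000000) and 14.1% against 33.5% on chromosome 5 (11400001 to 12400000). Since the stretches were chosen as the lowest, their being low is no finding. Coverage on the sides of the trough was similar on chromosomes 1, 3 and 5, with 33.0% and 32.2%, 35.3% and 33.8%, and 34.3% and 33.0% to the left and right. It was 46.5% and 40.8% on chromosome 2 and 40.7% and 36.5% on chromosome 4.

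The troughs held few protein-coding genes and were not free of strong peaks. Protein-coding genes made up 2.25% to 4.12% of the trough on chromosomes 1, 3, 4 and 5, against 20.03% to 28.2% in the rest of the window. On chromosome 2, whose trough contains the 271 kb gap, the shares were 18.1% and 20.6%. Annotated pseudogenes made up 22.8% of the trough on chromosome 1 and 23.1% of the rest of its window. The shares were 35.4% and 30.0% on chromosome 2 and 38.5% and 31.1% on chromosome 3. They were 48.8% and 27.5% on chromosome 4 and 45.2% and 22.0% on chromosome 5. Broad peaks of the trough numbered 48 on chromosome 1 to 113 on chromosome 4. The share of them without a summit was higher than in the rest of the window on each chromosome, from 30.6% against 21.6% on chromosome 2 to 43.0% against 25.4% on chromosome 5. Choosing stretches of low coverage favours short peaks, which hold fewer summits in part by construction, so this contrast is no separate finding. Median widths in the trough were 1223 to 1463 bp on chromosomes 2 to 5, against 1743 to 2191 bp in the rest. On chromosome 1 they were 1718 and 1696 bp. The highest folds on chromosomes 3 and 4, 3.55 and 2.98, nevertheless belonged to peaks inside the troughs.

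**Figure D3:**
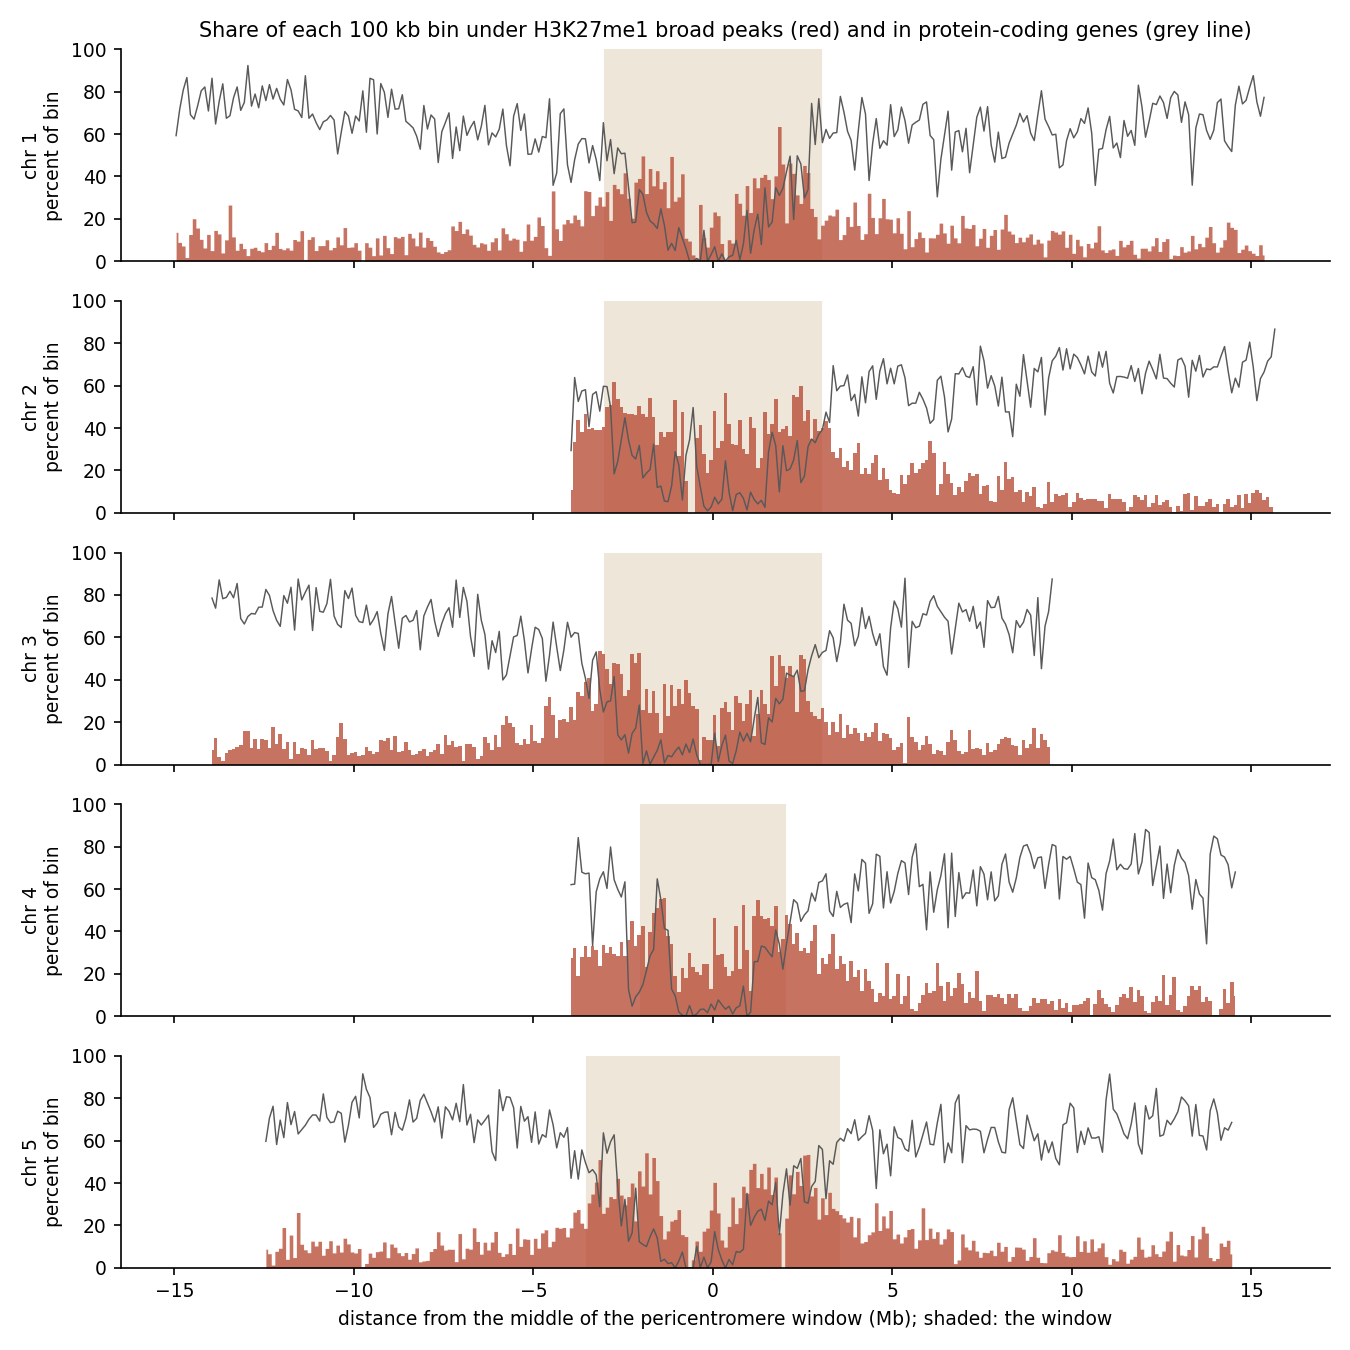
Share of each 100 kb bin under H3K27me1 broad peaks (red, percent) and in protein-coding genes (grey line, percent) along chromosomes 1 to 5, against distance in Mb from the middle of the pericentromere window (shaded). Coverage is highest in the flanks of the windows, up to 63.6% on chromosome 1, or just outside the window on chromosome 3, and lower in the middle. The short arms left of the windows of chromosomes 2 and 4 stay high.

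Bins with more protein-coding sequence had less H3K27me1 in the arms but more of it near the centromeres. Spearman's rho between coverage and the protein-coding share of a bin was -0.58 over 902 bins outside the windows and 0.45 over 290 bins inside. Without the troughs it was 0.27 over 240 bins. These are descriptions across bins, which share chromosome position and base composition. Of 8 bins at 0% coverage, 5 lay in the windows and 3 outside.

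Between peaks, the arms and the windows differed in what separated neighbours. Outside the windows 10.4% of the gaps held no base of a protein-coding gene, and 30.6% held no whole gene. Inside, 53.7% held no such base and 77.5% no whole gene. The mean number of whole genes between neighbouring peaks was 2.43 outside and 0.358 inside.

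Midpoints of H3K27me1 peaks lay beside protein-coding genes more often than the span did, in the arms and in the windows, and inside genes less often. Outside the windows, the midpoint of 59.1% [58.0 to 60.1%] of the broad peaks lay within 1 kb of a protein-coding gene, and 17.8% [16.9 to 18.6%] lay in one. There, 22.4% of the span was within 1 kb of a gene and 64.9% was in genes. Inside the windows, 26.1% [24.7 to 27.5%] of the midpoints lay within 1 kb and 12.1% [11.1 to 13.2%] in a gene. The span of the windows had 14.1% and 20.7% in those places. Farther than 1 kb from a gene lay 61.8% of the midpoints and 65.2% of the span in the windows, and 23.2% and 12.7% outside. Narrow summits lay in a gene in 9.01% [8.45 to 9.61%] of cases over all chromosomes. Gene intervals come from TAIR10.1 and the peaks from TAIR10, and strand and exons were not used.

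The distance to genes went with the shape of a peak. A midpoint more than 1 kb from any gene needs a long interval, which has more room for a wide peak. The part of this room in the values below was not tested. Peaks with their midpoint within 1 kb of a gene had a median width of 881 bp, and 6.60% of them held 2 or more summits. Peaks farther away had a median width of 1945 bp, and 25.4% held 2 or more. Both held in the arms alone, with 817 against 1896 bp and 3.72% against 17.4%. Peaks with the midpoint in a gene of the arms had a median width of 1110 bp and most often lacked a summit, in 61.0% of cases.

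Most long stretches between genes contained H3K27me1, in the windows more often than outside. Of the 23810 intervals between neighbouring protein-coding genes, 9512 (39.9% [39.3 to 40.6%]) held at least 1 base of a broad peak. A longer interval has more room for a peak, and the share rose from 9.67% [9.06 to 10.3%] under 500 bp to 94.7% [92.8 to 96.2%] at 10000 bp or more. The share of bases covered did not follow length in the same way. It was 11.3% under 500 bp, 24.9% at 500 to under 1000 bp, 36.3% at 2000 to under 5000 bp and 28.4% at 10000 bp or more. Within each class of length a larger share of intervals was reached inside the windows than outside. At 500 to under 1000 bp these shares were 61.4% [55.8 to 66.8%] and 32.9% [31.4 to 34.4%]. At 10000 bp or more they were 98.4% [96.9 to 99.2%] of 512 intervals inside and 84.9% [79.1 to 89.3%] of 192 outside. Narrow peaks reached 96.5% and 57.8% of those long intervals.

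**Figure D4:**
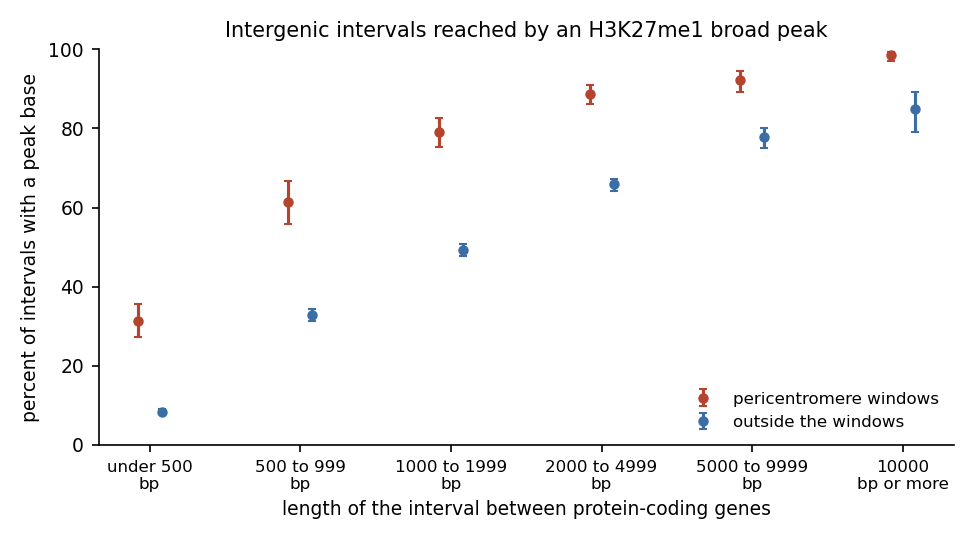
Percent of intervals between neighbouring protein-coding genes that hold at least 1 base of an H3K27me1 broad peak, by length of the interval in bp, inside (red) and outside (blue) the pericentromere windows. Points are shares and bars Wilson 95% intervals; shares rise with length and are higher inside the windows in each class, as at 500 to under 1000 bp with 61.4% against 32.9%.

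Many genes thus had a peak as a neighbour, though fewer had one inside. Of 27444 protein-coding genes, 13303 (48.5%) had a broad peak in the gene or within 1 kb, and 6219 (22.7%) had one inside. A peak beside but not inside was found at 7084 genes. Peaks lay on both flanks within 1 kb at 3746 genes, 45.5% of the genes in the windows and 9.73% of those outside. By chromosome, the share with a peak in the gene or within 1 kb ran from 45.3% on chromosome 1 to 52.4% on chromosome 4. Wholly covered genes numbered 1066 and were short, with a median length of 808 bp against 2078 bp for all genes. These were 16.8% of the genes in the windows and 2.29% of those outside.

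Other annotated genes were set beside the 22.7% of protein-coding genes with a peak inside. A broad peak touched 24.96% [21.7 to 28.5%] of 625 tRNA genes and 22.4% [21.0 to 23.8%] of 3480 long noncoding RNA genes. It touched 19.6% [15.7 to 24.3%] of 326 microRNA genes. The share was 28.9% [24.0 to 34.4%] of 287 snoRNA genes, 34.4% [28.4 to 40.9%] of 221 genes of the class ncRNA and 35.8% [31.8 to 40.1%] of 508 of the class misc_RNA. It was 5.06% [1.99 to 12.3%] of 79 antisense RNA genes. Median gene lengths were 73 bp for tRNA, 144.5 bp for microRNA, 343 bp for long noncoding RNA and 2078 bp for protein-coding genes. Genes with at least as many bases inside peaks as outside were 24.2% of tRNA, 18.1% of microRNA and 17.8% of long noncoding RNA genes. They were 26.8% of snoRNA, 22.2% of ncRNA, 23.8% of misc_RNA and 3.80% of antisense RNA genes, against 5.49% of protein-coding genes. Neither measure was matched for gene length. Of 3917 pseudogenes, 82.3% lay in the pericentromere windows, where 25.9% of them were touched, against 55.3% of the protein-coding genes and 53.7% of the transcribed pseudogenes there.

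Genes that make, remove or read silent chromatin marks had peaks about as often as other genes. Over the 37 genes of the lists for heterochromatin, DNA methylation and demethylases, 18 (48.6%) had a broad peak in the gene or within 1 kb, next to 48.5% of all protein-coding genes. A peak inside was found in 7 (18.9%), next to 22.7%. With the genes known for silenced repeats and those of replication, 28 of 54 (51.9%) had a peak in the gene or within 1 kb and 14 (25.9%) had one inside. The lists are small and were chosen with earlier results of these data known. These counts fell with a stricter list. With peaks of −log10 q of at least 5, 10.1% of all protein-coding genes had one, and the lists had 1 of 14 heterochromatin genes, 0 of 13 DNA methylation genes, 1 of 4 DNA demethylases, 0 of 6 histone demethylases, 1 of 10 silenced-repeat genes and 3 of 9 replication genes.

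ATXR5 and ATXR6, the H3K27 monomethyltransferases, had no peak in the gene or within 1 kb, and the nearest was 6419 and 1136 bp away. Of the 14 genes for heterochromatin proteins and methyltransferases, 6 had one, next to 48.5% of all protein-coding genes. HTA7 (AT5G27670), a heterochromatic H2A.W histone that lies in a pericentromere window, was wholly covered by a peak of fold 1.72 from 9791877 to 9793911 on chromosome 5. Its relative HTA6 had a peak 122 bp away (fold 1.50), and HTA12, of the same histone type, had none within 1 kb. SUVH2 and SUVH9, which bind methylated DNA in RNA-directed DNA methylation, were covered over 21.6% and 8.68%. SUVH5, an H3K9 methyltransferase, was covered over 1.34%, and LHP1, a reader of H3K27me3, had a peak 182 bp away. SUVH4, SUVH6, the remodeller DDM1, MOM1 and MORC6 had none.

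Of the 13 DNA methylation genes, 5 had a peak in the gene or within 1 kb, and 3 had one within 500 bp. The shares over all protein-coding genes were 48.5% and 42.9%. DCL3 and AGO4, which make and bind small RNAs, were covered over 7.65% and 10.4%. The de novo methyltransferase gene DRM1, the polymerase IV subunit gene NRPD1 and AGO6 had peaks 747, 241 and 722 bp away. MET1, CMT2, CMT3 and DRM2, the other methyltransferases of the list, had none, and neither did VIM1, NRPE1, RDR2 and AGO9.

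Of the 4 DNA demethylases, 3 had a peak in the gene or within 1 kb, next to 48.5% of all protein-coding genes. Peaks covered 9.68% of DML3 (fold 1.85) and lay 7 bp from DML2 (fold 1.67) and 232 bp from ROS1 (fold 1.39). DME, the demethylase of the central cell and the vegetative cell of pollen, had none. Of the 6 H3K27 and H3K9 demethylases, 4 had one and 0 had one inside. The shares over all protein-coding genes were 48.5% and 22.7%. The H3K27me3 demethylases REF6, JMJ13 and ELF6 had peaks 17, 18 and 255 bp away, with folds of 1.76, 1.78 and 1.64, and JMJ30 had one at 886 bp (fold 1.61). The first 3 peaks were 537, 1453 and 656 bp wide. JMJ32 and the H3K9 demethylase gene IBM1 had none.

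Of the 10 genes known for a silenced repeat in or beside them, 6 had a peak in the gene or within 1 kb, and 5 had one inside. The shares over all protein-coding genes were 48.5% and 22.7%. EPF2, a peptide gene of stomatal patterning, was wholly covered by a peak of 7614 bp on chromosome 1 from 12471379 to 12478992, with 4 summits and a fold of 1.71. QQS, an orphan gene of starch metabolism, was covered over 52.2% (fold 1.57). SDC, an F-box gene silenced by DNA methylation of its promoter repeats, was covered over 26.9% by a peak with 2 summits (fold 1.597). FWA, a homeobox gene silenced through repeats at its start, was covered over 19.9% by a weak peak without a summit (fold 1.44, −log10 q of 1.41). RPP7, a disease resistance gene, was covered over 9.85%, with 3 peaks in or near it. PHE1, IBM1, FLC and FT had none, and ROS1 is given above.

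Of the 9 genes for replication licensing and origins, 5 had a peak in the gene or within 1 kb, and 3 had one within 500 bp. The shares over all protein-coding genes were 48.5% and 42.9%. MCM5 and MCM2, subunits of the replicative helicase and both in the windows, were covered over 15.0% and 2.95%. The strongest peak at MCM2 was 7843 bp wide, with 4 summits and a fold of 1.72. The strongest at MCM5 was 459 bp wide, with a fold of 1.86. ORC1B, CDC6A and CDT1A, which load the helicase at origins, had peaks 648, 304 and 596 bp away. ORC1A, ORC2, PCNA1 and PCNA2 had none.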

How the data were processed

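The broad and the narrow H3K27me1 peak lists were analysed on chromosomes 1 to 5. Per the submitters' processing notes, the build was TAIR10 and the tools were MACS2 2.1.0, Bowtie2 2.1.0, Trim Galore 0.4.1, deepTools 2.5.0.1, Picard, SAMtools 1.3 and bedtools, with no role or order given. The sources used here do not say how samples and inputs were combined. The files have no header, and their format gives the deposited columns as the fold of a peak (a ratio to the background of the peak caller) and its −log10 q, made by the authors. These served only to describe or rank peaks within a list. Libraries read 50 bp paired ends per the labels' protocols.

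Start and summit positions were taken from the files and are printed counted from 1. A summit is the start of a narrow peak plus its deposited offset. Gaps run from the end of a peak to the start of the next. Coverage used merged intervals, and bins under 50% of full length were dropped. Genes were those of a RefSeq table on TAIR10.1, which lists 38312, of which 37899 lie on chromosomes 1 to 5. No gene coordinate is printed. To check the numbering, narrow peaks were moved along the chromosome by 100 bp at a time, at most 3000 bp either way. Their overlap with protein-coding genes was smallest without a shift in 10 of 10 chromosome segments. All 54 listed loci were found; the table has no symbol for JMJ13 and RPP7, which were matched by locus. The span of a chromosome is the end of its last peak or gene.

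Named genes are those in or next to the 10 broad peaks that lead by fold, width or number of summits, those of the largest cluster per chromosome, and list members. The narrow peaks, the ranking by −log10 q, the troughs and the short arms were picked after their values were seen. Members and lists were chosen with earlier results of these data known. Promoter sequences were not analysed here. Interval code was tested on simulated peaks. Python 3.11.15, pandas 2.3.3, numpy 2.4.6 and SciPy 1.17.1 were used.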

Additional observations from a re-analysis of the deposited data

How the results depend on the processing

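With a −log10 q of at least 5, 2331 broad peaks over 6.27 Mb were left, with a median width of 1836 bp, a median gap of 16137 bp, 0.215% in clusters of 5 or more and 76.6% of the marked length in the pericentromere windows; 10.1% of protein-coding genes had a peak inside or within 1 kb. With at least 2, the median width was 1346 bp. As reported, 46.4% of the marked length lay in the windows. The share was 27.4% with windows 1 Mb shorter on each side, 59.7% with windows 1 Mb longer and 58.4% in the narrow list, which had a median gap of 4601 bp and 16.9% of bins above 2 times its mean. Joining over 1 kb gave 0% in clusters of 5 or more, since no gap is that short, and joining over 5 kb 28.7%. With narrow peaks of −log10 q of at least 5, 55.98% of broad peaks had no summit, 33.9% had 1 and 10.1% had 2 or more. The highest bin overlapped the reported one on 2, 3 and 1 chromosomes with 50 kb bins, 200 kb bins and the narrow list. Of broad midpoints, 15.98% lay in a gene, 48.7% within 1 kb and 35.4% farther away. Any overlap of the peak gave 46.4%, 35.1% and 18.6%, and narrow summits 9.01%, 51.0% and 39.97%. With 500 bp the last 2 shares were 27.8% and 56.2%, and with 2 kb 63.9% and 20.1%. Genes with a peak were 42.9% at 500 bp and 56.2% at 2 kb. The counts of listed genes that moved by over 1.5 times are given with the lists. Without the longest gap, chosen after seeing the data, the SD of all gaps over their mean was 1.24 in place of 1.27. No paired analysis was possible because the lists hold no value per sample, and for the same reason no sample could be left out.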
